A study of Mus musculus with 5 samples.

Results

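In primary pancreatic acinar cells with and without Arid1a, 10 genes of sugar uptake, glycolysis and lactate formation were followed: the glucose transporter gene Slc2a1, the enzyme genes Gpi1, Aldoa, Tpi1, Gapdh, Pgk1, Pgam1 and Eno1, and the lactate dehydrogenase genes Ldha and Ldhb. They were taken by symbol from the 23284 genes of the count tables, and all 10 were found. The set was chosen by the CPM (counts scaled to a common library total) of Ldha, which was lower in the knockout libraries than in the controls, so every knockout and control value of the 10 genes below is a description without a test. Knockout cells came from Arid1afl/fl;p48-Cre mice (3 libraries) and control cells from p48-Cre mice (2 libraries), all C57BL/6 and 8 weeks old. Both groups carry Cre under the p48 (Ptf1a) gene, which is active in the embryonic cells that form the pancreas, and the knockout mice also carry floxed Arid1a, which encodes a subunit of SWI/SNF chromatin remodellers. The labels do not say whether each library came from its own animal, so a p-value here measures spread among libraries that may be technical replicates.

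Glycolysis splits glucose into pyruvate in the cytosol and yields ATP without oxygen. Glucose enters through transporters such as the product of Slc2a1, is turned over step by step by the isomerase, aldolase, dehydrogenase, kinase, mutase and enolase whose genes are listed above, and pyruvate kinase closes the chain. Lactate dehydrogenase, a tetramer of A and B subunits, then converts pyruvate to lactate and regenerates NAD+. Ldha is a textbook target of the hypoxia factor HIF-1, as are Slc2a1, Pgk1 and other glycolytic genes.

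Ldha and Ldhb encode the A and B subunits and are related in sequence. No 50-base stretch of the Ldhb transcript occurs in an Ldha transcript, since the 1 other gene that holds any is the pseudogene Gm5514. Over their coding sequences, 996 and 1002 bases long without the stop codon, 71.5% of the 996 aligned bases were identical. The middle 50 bases of each coding sequence, from the GENCODE M21 transcripts of GRCm38, are shown because they are the same stretch of both genes, on chromosome 7 for Ldha and 6 for Ldhb. Capitals mark the 8 bases at which they differ, and the other 42 are shared.
Ldha: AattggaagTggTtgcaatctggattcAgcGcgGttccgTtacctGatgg
Ldhb: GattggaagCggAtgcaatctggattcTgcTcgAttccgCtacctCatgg
No other annotated gene holds that Ldha stretch, and 1 pseudogene holds that of Ldhb. Gapdh and Eno1, of the later steps of the pathway, are shown as the genes with the most shared transcript sequence. The same 50 bases of Gapdh, on chromosome 6, were found unchanged in 44 other annotated genes, 40 of them pseudogenes, and those of Eno1, on chromosome 4, in 2 others. The Pgk1 stretch recurs in 2 genes and the Pgam1 and Aldoa stretches in 1 each, while those of Slc2a1, Gpi1 and Tpi1 recur in none.
Gapdh: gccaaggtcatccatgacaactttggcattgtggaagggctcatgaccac
Eno1: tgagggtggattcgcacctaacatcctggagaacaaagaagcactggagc

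The promoter of Ldha is shown because HIF-1 binds the letters ACGTG or GCGTG. This RefSeq window runs from 250 bases before to 50 bases after a start of the gene (GRCm38.p6, chr7:46845554-46845853, plus strand), and capitals mark each match to ACGTG or GCGTG on either strand.
Ldha promoter: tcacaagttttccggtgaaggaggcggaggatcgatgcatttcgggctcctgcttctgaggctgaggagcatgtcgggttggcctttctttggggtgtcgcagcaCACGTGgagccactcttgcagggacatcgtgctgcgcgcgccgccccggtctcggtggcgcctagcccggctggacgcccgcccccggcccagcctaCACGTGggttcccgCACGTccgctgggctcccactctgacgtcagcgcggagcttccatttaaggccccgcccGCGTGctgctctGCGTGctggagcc
It held 5 matches to ACGTG and 2 to GCGTG. The 6-letter CACGTG, present in a pair of copies, reads the same on both strands and gives 2 of the ACGTG matches each. All 10 genes had at least 1 such window, 15 in all. Several starts of Ldha, Aldoa and Eno1 gave more than 1, and the second Ldha window held no ACGTG but had GCGTG 2 times. Among the windows, ACGTG was found in 7 of the 15 windows, belonging to 6 of the 10 genes (Slc2a1, Gapdh, Ldha, Aldoa, Pgam1 and Pgk1), against 19.6% of all 32851 promoter windows. Either set of letters was found in 12 of the 15, against 43.8% of all windows. A pair of Aldoa windows and a pair of Eno1 windows overlap and share their matches. With these merged, ACGTG stood in 6 of 13 stretches and either set in 10. A match is a description of sequence and was not tested as a binding site.

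Depth set what could be seen. The knockout libraries held 3155357, 3568906 and 3345121 counts after removal of Rn45s and Lars2 (the ribosomal RNA precursor, and a tRNA synthetase gene left out with it), against 67514 and 72006 in the control libraries. Rn45s took 6.78% to 10.9% of all counts in the knockouts and 72.6% and 82.2% in the controls. One count was worth 0.280 to 0.317 CPM (counts scaled to the total without those genes) in a knockout library and 13.9 to 14.8 CPM in a control library, and the floor of 3 counts was 0.841 to 0.951 CPM and 41.7 to 44.4 CPM. Depth and Rn45s share split the libraries exactly as genotype does, so these and the knockout cannot be told apart. Arid1a itself had 44, 121 and 42 counts in the knockouts and 0 and 3 in the controls, so its loss was not detectable at this depth, and a count over the whole gene does not check a deletion of part of it. As for the labelled cell type, 14 acinar markers took 41.2% to 45.5% of the counts in the knockouts and 39.4% and 41.4% in the controls, with Amy2a5 at 0 in all 5 libraries. Ptf1a had no control count, where its knockout level would give 2.67, below the floor of 3. In bulk RNA, fewer cells of a type and less RNA per cell cannot be told apart.

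Ldha, the gene of the A subunit, had 100, 200 and 39 counts in the knockout libraries and 18 and 15 in the control libraries. On the CPM scale this was 31.7, 56.0 and 11.7 in the knockouts against 267 and 208 in the controls. Every knockout library lay below both controls. The group means were 33.1 ± 22.2 CPM in knockouts (SD, n = 3) and 237 ± 41.2 CPM in controls (SD, n = 2), a log2 ratio of -2.84. The pooled counts gave a ratio of 0.142, with an exact 95% binomial interval of 0.0994 to 0.210 for counting error alone. Other scalings gave log2 ratios of -1.19 with TMM, -1.65 with RLE and -0.55 with whole-library totals. Ldhb, the gene of the B subunit, had 6, 21 and 3 counts in the knockouts and none in either control. Its knockout level, 2.98 CPM pooled, lay below the 21.5 CPM that 3 counts make over both controls, so no comparison of Ldhb was possible. Ldha made up 94.3%, 90.5% and 92.9% of the lactate dehydrogenase counts of A and B in the knockouts, and all 18 and 15 such counts in the controls, where the exact 95% intervals reached down to 81.5% and 78.2%.

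**Figure D1:**
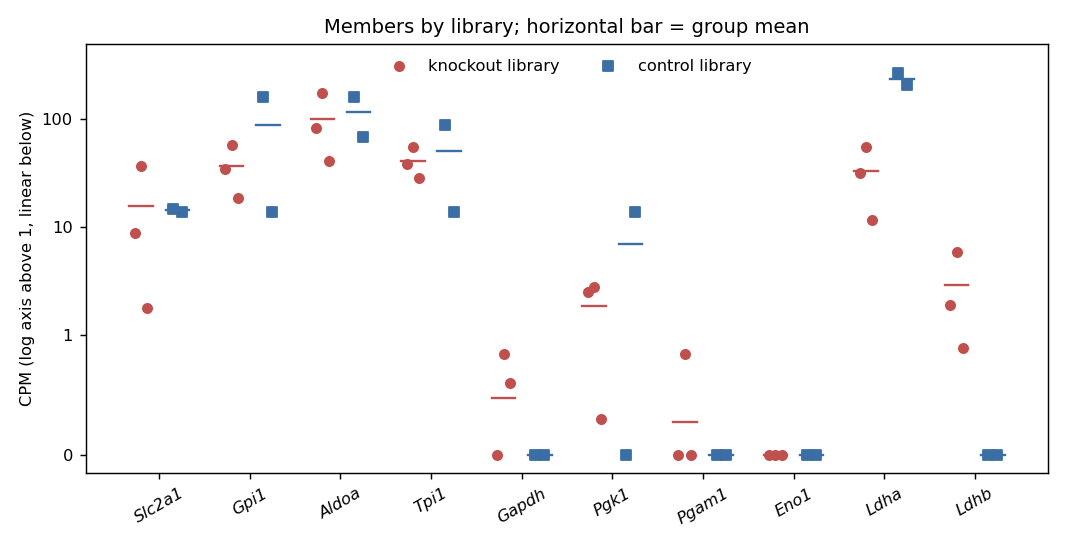
CPM of the 10 genes in each library, on an axis that is logarithmic above 1 and linear below it. Circles are the 3 knockout libraries, squares the 2 controls and horizontal bars group means. Ldha stands at 11.7 to 56.0 CPM in the knockouts and 208 and 267 CPM in the controls. The groups overlap for Gpi1, Aldoa and Tpi1, for Gpi1 and Tpi1 through 1 count each in control 2.

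Upstream of lactate, the groups overlapped for Gpi1, Aldoa and Tpi1, whose pooled knockout levels lay above the 21.5 CPM of 3 control counts. Slc2a1, which brings glucose into many cell types, had 8.87, 37.0 and 1.79 CPM in the knockouts and a single count in each control (14.8 and 13.9 CPM). Its pooled knockout level of 16.5 CPM lay below the 21.5 CPM of 3 control counts, so it could not be compared. Gpi1, the isomerase of glucose 6-phosphate, had 34.5, 58.3 and 18.8 CPM in the knockouts against 163 and 13.9 CPM in the controls. The controls lay on either side of all 3 knockouts. Aldoa, the aldolase that cuts fructose 1,6-bisphosphate, was the most counted of the 10 genes in the knockouts, at 83.4, 177 and 41.3 CPM, against 163 and 69.4 CPM in the controls. Tpi1, the triose phosphate isomerase, had 38.7, 55.8 and 28.7 CPM in the knockouts against 88.9 and 13.9 CPM in the controls. Control 2 was the lower of the controls in each of these enzyme genes. For Gpi1 and for Tpi1 it held 1 count, below the floor of 3, and their overlap rests on that count. Tpi1 had 7 control counts in all.

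The log2 ratios of mean CPM were -0.21 for Aldoa, -0.32 for Tpi1 and -1.25 for Gpi1. Without control 1 they were 0.53, 1.56 and 1.42, and with whole-library totals 1.96, 1.73 and 0.76. Each also turned positive with either TMM and with RLE. Without the digestive enzymes in the totals Aldoa and Tpi1 turned positive, and with upper quartile factors only Tpi1. Aldoa was 0.16 without knockout 3. Their direction therefore rested on control 1 and on the scaling, and for Aldoa on knockout 3 too. For Aldoa, the pooled ratio of 0.894 had an exact 95% interval of 0.548 to 1.57. The interval was 0.397 to 2.07 for Tpi1 and 0.248 to 0.857 for Gpi1, whose 12 control counts included 11 from control 1. Summed, the 9 genes other than Ldha had 170, 338 and 92.4 CPM in the knockouts against 430 and 125 CPM in the controls. Their log2 ratio was -0.47, and it turned positive without control 1 (0.68), with TMM, RLE or whole-library scaling and, at 0.02, without the digestive enzymes in the totals. For Ldha the log2 ratio stayed below 0 under each of the 6 other scalings. With each library left out it was -3.45 to -2.44. Its sign could not change there, since every knockout lay below both controls.

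The share of Ldha among the 10 genes is formed inside each library and does not use its scaling. Ldha took 15.7%, 14.2% and 11.2% of the counts of the 10 genes in the knockout libraries and 38.3% and 62.5% in the control libraries. The exact 95% intervals were 13.0% to 18.8%, 12.4% to 16.1% and 8.09% to 15.0% in the knockouts, and 24.5% to 53.6% and 40.6% to 81.2% in the controls. The intervals cover counting error only, and the difference is part of what chose the set. Aldoa took the largest share in each knockout, 41.4%, 44.8% and 39.7%, against 23.4% and 20.8% in the controls. Of Ldha and Aldoa together, Ldha was 27.5%, 24.1% and 22.0% in the knockouts and 62.1% and 75.0% in the controls. Of Ldha and Pkm2, the gene of pyruvate kinase, Ldha was 45.7%, 39.8% and 34.8% in the knockouts and 47.4% and 62.5% in the controls, and the interval of knockout 1 (38.9% to 52.5%) lay inside that of control 1 (31.0% to 64.2%).

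**Figure D2:**
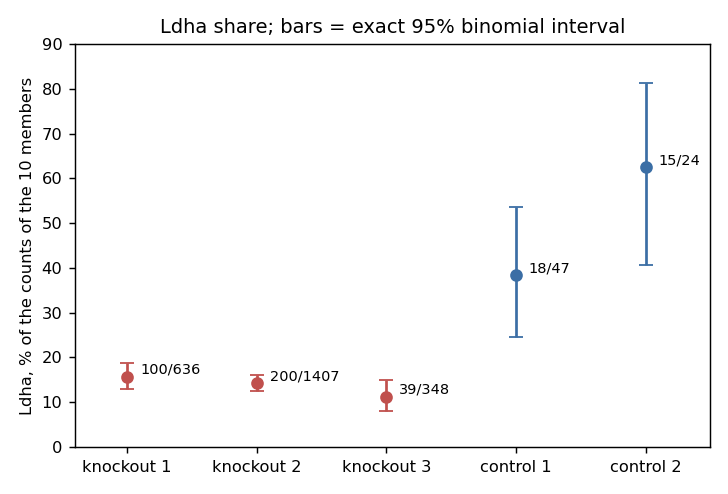
Percent of the counts of the 10 genes that fell on Ldha in each library, knockouts at the left, with exact 95% binomial intervals and the counts beside each point. The 3 knockout libraries lie between 11.2% and 15.7%, below control 1 at 38.3% and control 2 at 62.5%.

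Per kilobase of transcript, the order of the genes differed between the groups. In the knockouts, Aldoa averaged 66.5 ± 45.9 CPM per kb (SD, n = 3), followed by Tpi1 at 25.5 ± 8.52, Ldha at 18.8 ± 12.6, Gpi1 at 12.9 ± 6.89 and Slc2a1 at 4.87 ± 5.71. Neighbours in that order differed by less than the larger of their SDs, apart from Gpi1 and Slc2a1. In the controls, Ldha came first at 134 ± 23.3 CPM per kb (SD, n = 2), ahead of Aldoa at 76.9 ± 43.8, Tpi1 (55.3 in control 1 and 8.64 in control 2) and Gpi1 at 30.7 ± 36.5. Tpi1 and Gpi1 did not differ beyond their spread there. Ldha exceeded Aldoa in both controls, with 151 against 108 and 118 against 46.0 CPM per kb, and lay below Aldoa and Tpi1 in all 3 knockouts.

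The genes of the later steps were almost uncounted. Gapdh, which oxidizes glyceraldehyde 3-phosphate, had 0, 3 and 2 counts in the knockouts and none in the controls. Pgk1, the kinase that makes the first ATP of the pathway, had 8, 10 and 1 counts in the knockouts and 0 and 1 in the controls. Pgam1, the mutase, had 3 counts in knockout 2 and none elsewhere, and Eno1, the enolase, is listed at 0 in all 5 libraries. Since every cell uses these enzymes, a listing at or near 0 is no measure of their RNA, and no ratio is given for them. How far each transcript is shared with other genes was computed from GENCODE M21, as the percent of its 50-base words that also occur, on either strand, in a transcript of another gene. It was 82.5% for Gapdh, whose words recur in 222 genes, 215 of them pseudogenes. Eno1 stood at 72.2%, Pgk1 at 68.0% and Pgam1 at 41.5%. The other 6 genes lay lower, with 27.0% for Ldhb, 25.3% for Gpi1, 17.1% for Ldha, 13.9% for Aldoa, 7.51% for Tpi1 and 1.74% for Slc2a1. These 6 had 30 to 1048 counts over the 5 libraries, and the 4 with over 40% shared had 0 to 20. Genes of the further lists with over 40% shared went both ways. Bnip3 (62.4%) had 169 counts and Got2 (47.2%) 74, against 1 for Brp44l (44.2%) and 0 for Ldhal6b (100%). The submitters' handling of multiply placed reads is not given in the sources used here, and the part of shared sequence in these low counts was not tested. Ldha words recur in 14 pseudogenes, so a part of its reads cannot be placed with certainty either.

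**Figure D3:**
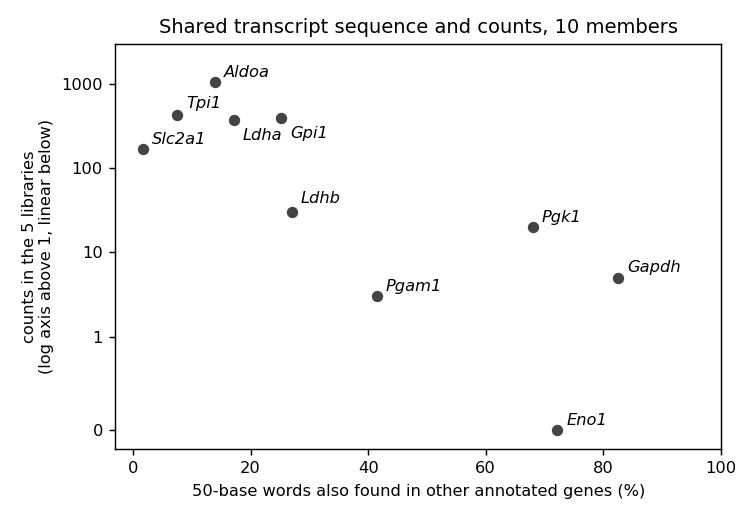
Counts over the 5 libraries, on an axis that is logarithmic above 1 and linear below it, against the percent of 50-base words of the transcript found in other annotated genes, 1 point per gene. Gapdh, Eno1, Pgk1 and Pgam1, at 41.5% to 82.5%, have 0 to 20 counts, and the 5 genes with the most counts lie at or below 25.3%.

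A log2 ratio as low as that of Ldha was common among genes well counted in the controls, but choosing genes by control counts favours genes high there. Low ratios among them are therefore partly set by that choice. Of the 304 genes with at least 20 counts in the controls together, 31.2% had a log2 ratio of mean CPM at or below that of Ldha, and their median was -1.66. All knockout libraries lay below both controls in 45.4% of these genes, and in 11.2% of all 8291 tested genes. Of all tested genes, 35.6% had every knockout above both controls, and their median fitted log2 fold change was 0.22. Ldha was the 1 gene among the 10 that reached 20 control counts. Receptor genes of smell and pheromone sensing (symbols starting Olfr or Vmn), made in sensory neurons, were likewise lower, with 11.7, 19.6 and 32.6 CPM summed over 1458 genes in the knockouts against 1511 and 1417 CPM in the controls. Their summed counts were 37, 70 and 109 in the knockouts and 102 in each control. The origin of these reads was not tested. The part of such reads, of depth and of Rn45s in the Ldha values was not tested either.

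**Figure D4:**
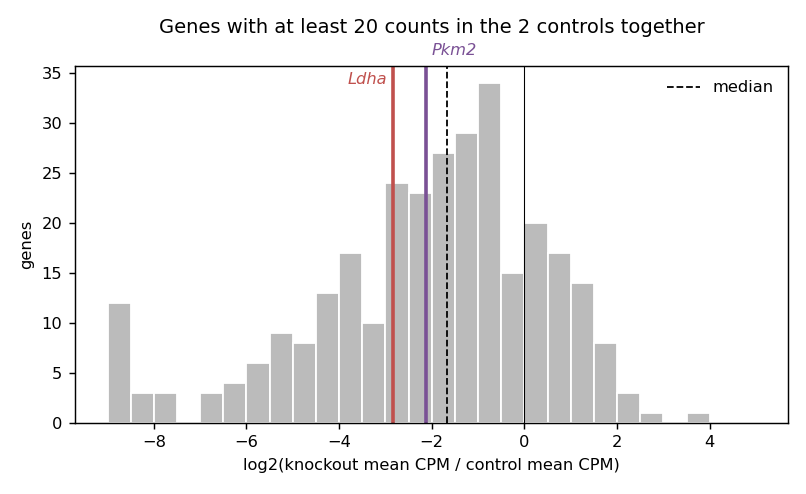
Number of genes by log2 ratio of knockout mean CPM over control mean CPM, for the 304 genes with at least 20 counts in the 2 controls together. That filter favours genes high in the controls. The leftmost bar also takes in lower values and the 5 genes without a knockout count. Ldha, at -2.84, and Pkm2, at -2.13, lie inside the distribution, left of its median of -1.66 (dashed line).

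The genes most like Ldha were sought among 58 genes with at least 20 counts in every library, by the root mean square difference of log2(CPM + 1) over the 5 libraries after each gene was centred on its own mean. Malat1, a long non-coding RNA of the nucleus, was closest at 0.54, with 124, 409 and 44.5 CPM in the knockouts against 1777 and 1986 CPM in the controls. Pabpc4, a poly(A)-binding protein gene, followed at 0.74, then the elastase gene Cela2a at 0.81, Rrbp1, of the rough endoplasmic reticulum, at 0.82 and the choline kinase gene Chka at 0.83. Ldha itself, with 18 and 15 control counts, was below the minimum set for these genes. Pkm2 had too few counts in control 2 to be eligible and stood at 0.54. The other counted genes of the set were farther from Ldha, from 1.31 for Slc2a1 and 1.37 for Aldoa to 2.36 for Ldhb. Slc2a1, Ldhb, Gapdh, Pgk1 and Pgam1 had 0 or 1 count in each control, so their distances rest on control values below the floor. Those of Gpi1 and Tpi1 rest in part on 1 count each in control 2, also below it.

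Within the knockouts, the glycolytic genes kept 1 order. Knockout 2 was highest and knockout 3 lowest for all 5 genes with a knockout mean of at least 10 CPM, an order found in 79.9% of the 4041 genes at that level. The highest knockout exceeded the lowest 20.6-fold for Slc2a1, 4.81-fold for Ldha, 4.29-fold for Aldoa, 3.09-fold for Gpi1 and 1.94-fold for Tpi1. Markers of several other cell types ran in the same order. In knockouts 1, 2 and 3, the 6 duct markers summed to 264, 974 and 154 CPM, the 12 macrophage and leukocyte markers to 86.8, 295 and 19.1 CPM and the 5 endothelial markers to 78.0, 108 and 21.2 CPM. Digestive enzymes and granule proteins ran the other way, at 79.0%, 67.7% and 87.4% of the counts, against 66.4% and 70.4% in the controls. In the controls the duct markers summed to 681 and 500 CPM, with Sox9 and Cftr at 0, the leukocyte markers to 14.8 and 41.7 CPM, with 9 of 12 at 0, and the endothelial markers to 0. The 7 islet markers summed to 172, 905 and 213 CPM in the knockouts against 104 and 680 CPM in the controls, with 5 of 7 at 0 in both controls. The 7 fibroblast markers summed to 18.1, 88.5 and 9.27 CPM in the knockouts against 14.8 and 222 CPM in the controls, and the 5 adipocyte markers to 122, 89.9 and 8.67 CPM against 44.4 and 0 CPM. The 7 erythrocyte and 7 striated muscle markers were at 0 in both controls and at most 1.40 CPM in a knockout. The part of other cell types in the glycolytic values was not tested.

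For the rest of the pathway, whose values did not choose the 10 genes, tests are given, although these lists too were drawn up with earlier results of the data known. Of 28 further glycolysis genes 15 passed the low-count filter, and edgeR's quasi-likelihood test with Benjamini-Hochberg adjustment over all genes called 0 higher and 1 lower, with 1 at an unadjusted p under 0.05. Limma-voom called 0 of the 15, and DESeq2 0 of the 8 to which it gave an adjusted p. Over all 8291 tested genes, 12.9% had an unadjusted p under 0.05 and 1.80% were called, 0.193% higher (16 genes) and 1.60% lower (133 genes). Scaled by TMM without Rn45s and Lars2, the split was 578 higher and 80 lower, with the median log2 fold change of all tested genes at 2.18, against 0.22 here. The median over the 15 genes was -0.56.

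The gene called lower was Slc2a3, a high-affinity glucose transporter of neurons and leukocytes. It had 0, 13 and 0 counts in the knockouts against 0 and 12 in the controls, and a fitted log2 difference of -6.02 ± 1.58 SE at an adjusted p of 0.0172 (edgeR). The call rests on control 2, and the groups overlap at 0. It was called in 3 of 7 other settings that gave it a value, and DESeq2 did not call it (adjusted p = 0.318, with 0.00019 to 0.962 over those settings). Pkm2, the muscle-type pyruvate kinase that makes the substrate of lactate dehydrogenase, had 37.7, 84.9 and 21.8 CPM in the knockouts and 296 and 125 CPM in the controls. Both controls lay above all knockouts, but the difference did not pass the test (log2 fold change -2.13 ± 1.15 SE, adjusted p = 0.434, edgeR), its log2 difference reached 0.07 with whole-library totals, and 34.4% of its 50-base words recur in other genes. Hk1, the hexokinase of the first step, had 1.58, 15.1 and 1.79 CPM in the knockouts and 2 and 4 counts in the controls (29.6 and 55.6 CPM), and a fitted log2 difference of -2.78 ± 1.48 SE at an adjusted p of 0.419 (edgeR). Pfkl, a phosphofructokinase, had 13.6, 35.6 and 8.97 CPM in the knockouts against 0 and 41.7 CPM in the controls (log2 fold change -0.13 ± 1.63 SE, adjusted p = 0.973, edgeR).

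Of 21 tested genes that handle pyruvate and lactate after glycolysis, 0 passed the edgeR threshold and 2 had an unadjusted p under 0.05, against 1.80% and 12.9% of all tested genes. Limma-voom called 0. DESeq2, which gave 11 of them an adjusted p, called 2 lower, Pdk1 and Pcx. Pcx (adjusted p = 0.0117, DESeq2) is pyruvate carboxylase and was named after its values were seen. TMM scaling called Brp44 and Gpt higher, of 18 with a value, both without a control count. Over all genes, DESeq2 called 43 higher and 468 lower. The 8291 genes it was given include genes without an adjusted p, so these counts give no share to set beside the 2 of 11. TMM without Rn45s and Lars2 called 578 higher and 80 lower of 5738. Pdk1, a kinase that switches off pyruvate dehydrogenase and a further HIF-1 target, had 7.29, 20.2 and 8.67 CPM in the knockouts and 44.4 and 194 CPM in the controls, or a fitted log2 difference of -3.31 ± 1.38 SE with an adjusted p of 0.227 (edgeR). Its groups did not overlap, and DESeq2 called it (adjusted p = 0.0350), 1 of 2 calls in 16 settings with adjusted p from 0.0350 to 0.962. Bsg, the chaperone of the lactate transporters, overlapped between groups at 95.1, 229 and 134 CPM in the knockouts against 207 and 55.6 CPM in the controls. The malate dehydrogenases of the cytosol and the mitochondrion, Mdh1 and Mdh2, averaged 69.7 ± 31.3 and 72.7 ± 46.3 CPM in the knockouts (SD, n = 3), against 71.3 ± 17.0 and 80.1 ± 54.3 CPM in the controls (SD, n = 2). The median fitted log2 fold change of the 21 genes was 0.63, with 10 of them at 0 in both controls.

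Gluconeogenesis and the pentose phosphate pathway, which share intermediates with glycolysis, had 0 of 8 tested genes past the edgeR threshold and 0 at an unadjusted p under 0.05, with 0 called by limma-voom and 0 of 6 by DESeq2. Set against the shares of all tested genes (1.80% and 12.9%), 8 genes are too few to tell. Pgls, a lactonase, had 108 ± 14.2 CPM in the knockouts and 110 ± 117 CPM in the controls. Taldo1, transaldolase, had 75.8 ± 14.4 against 70.8 ± 37.3 CPM. For Pck2, the mitochondrial carboxykinase, and Tkt, transketolase, the log2 fold changes were 0.63 ± 1.41 and 0.30 ± 1.52 (SE; adjusted p = 0.816 and 0.925, edgeR).

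HIF-1 targets outside glycolysis had 0 of 15 tested genes past the edgeR threshold (1.80% of all tested genes), 0 at an unadjusted p under 0.05 (12.9% of all), 0 called by limma-voom, 0 of 10 with an adjusted p called by DESeq2, and a median fitted log2 fold change of -0.76. They included 11 genes fitted below 0 and 4 above. Hif1a, the gene of the factor's oxygen-regulated subunit, had 12.4, 19.3 and 1.79 CPM in the knockouts against 14.8 and 139 CPM in the controls (log2 fold change -2.78 ± 1.45 SE, adjusted p = 0.402, edgeR). Bnip3l, a mitophagy receptor gene, had 10.1, 24.9 and 10.2 CPM in the knockouts against 14.8 and 181 CPM in the controls (adjusted p = 0.398, edgeR). Anxa2, an annexin, had 78.6, 258 and 20.0 CPM in the knockouts against 281 and 111 CPM in the controls (adjusted p = 0.713, edgeR). Ndrg1 went the other way, with 40.2, 96.7 and 24.2 CPM in the knockouts against 1 count in both controls together, a pooled ratio of 7.66 that did not pass the edgeR test (adjusted p = 0.552). It was called higher in 2 of 16 other settings, both TMM scalings (adjusted p = 0.0452 on all counts, with 0.0452 to 1.00 over the settings).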

How the data were processed

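RNA of primary acinar cells was sequenced in 5 libraries. The labels' protocols describe bead capture of mRNA with the TruSeq RNA v2 kit, which does not mark strand. The authors deposited whole-number counts per gene symbol for 23284 genes, without normalization. Named per the submitters' processing notes, without roles, are HTSeq 0.9.1, the aligner TopHat2 2.1.1 and the build mm9. Settings for strand and multi-mapping reads were not found there.

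CPM used library totals without Rn45s and Lars2. On the same scale, edgeR 4.0.16 (R 4.3.3, glmQLFit with robust estimation, glmQLFTest, two-sided, filterByExpr) tested 8291 genes with group as the only term, 33.5% of which had no control count. Calls used an adjusted p under 0.05. The SE is the log2 fold change over the root of F. Of the 10 genes, 5 passed the filter (Slc2a1, Gpi1, Aldoa, Tpi1, Ldha). Members and lists were chosen with earlier results of these data known. From each further list the 4 genes with the highest mean CPM and up to 4 called genes were named, besides the 5 genes most like Ldha. Intervals are exact (Clopper-Pearson) and cover counting error only. Alternatives were 6 other scalings, 2 filters, DESeq2 1.42.0, limma-voom 3.58.1, the replicate number as a block and each library left out. Sequences came from GENCODE M21 and RefSeq, both on GRCm38, not mm9. No mm9 genome was used here.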

Additional observations from a re-analysis of the deposited data

How the results depend on the processing

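The log2 ratio of Ldha, the value that chose the set, stayed below 0 under every scaling. With a library left out its sign could not change, since every knockout lay below both controls. It was -1.19 with TMM on all counts and -1.19 with TMM without Rn45s and Lars2, -1.65 with RLE and -0.55 with whole-library totals, and -3.45 to -2.44 with a library left out. The sum of the other 9 genes changed direction, to 1.23 with either TMM, 0.82 with RLE and 1.65 with whole-library totals, and it ran from -1.10 to 0.68 with a library left out. The Ldha share of the 10 genes, a log2 ratio of -1.88, ran from -2.19 to -1.48 with a library left out and was -0.11 as a share of Ldha and Ldhb. Of Ldha, Aldoa, Tpi1 and Gpi1, a denominator chosen after seeing the data, it was -1.85. Ldha over Gapdh could not be computed, since Gapdh had no control count. For 5 single genes (Slc2a1, Gpi1, Aldoa, Tpi1 and Pgk1), 15 of 54 alternative values moved by more than the replicate SD, all of them upward. This tally includes Slc2a1 and Pgk1, whose 2 and 1 control counts were too few to compare.

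Genes called higher and lower numbered 597 and 85 with TMM on all counts, 578 and 80 with TMM without Rn45s and Lars2, 9 and 255 with upper quartile factors, 149 and 19 with whole-library totals and 43 and 468 with DESeq2. RLE called 18 higher and 59 lower of 5522 tested genes, and totals without the digestive enzymes 25 and 147 of 6961. No low-count filter gave 19 and 898 of 16968, and 1 CPM in 2 libraries gave 19 and 388 of 10967. Settings with another scaling, filter or set of libraries tested other numbers of genes than the 8291 of the main fit, so their counts share no common base. Limma-voom called 0 higher and 43 lower, with 773 genes at an unadjusted p under 0.05. With a library left out, 0 to 19 genes were called higher and 4 to 378 lower. Without knockout 1 the calls were 0 and 4 (161 genes at an unadjusted p under 0.05 in edgeR), without knockout 2 they were 13 and 48, without knockout 3 they were 19 and 63, without control 1 they were 17 and 378, and without control 2 they were 13 and 254. Among the further glycolysis genes, 1 was called higher and 0 lower with either TMM. With RLE, upper quartile, whole-library totals, totals without enzymes, DESeq2 and limma-voom, 0 were called lower, and 0 to 1 with a library left out, with 0 higher throughout. The cause of these changes was not tested.

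The replicate number as a block left 4 genes called higher and 5 lower, and 0 of the further glycolysis genes lower. The labels do not say that a number marks a shared animal or day. Deviations of same-numbered libraries correlated at -0.02 and 0.07 over 304 genes. With 2 controls, their deviations mirror each other, and control counts are low. These values therefore cannot tell whether the samples share more than a number. Depth limits the controls, where 3 counts were 41.7 and 44.4 CPM, and Slc2a1, Ldhb, Gapdh, Pgk1, Pgam1 and Eno1 could not be compared.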
